A study of Mus musculus with 6 samples.

Results

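The arachidonate lipoxygenases and the protein that serves one of them were followed in the pregnant mouse uterus through every probe that names Alox5, Alox5ap, Alox8, Alox12, Alox12b, Alox12e, Alox15 or Aloxe3. These 8 genes, chosen by family name once the log2 fold changes of Alox15 and its relatives between the same 6 arrays were known, make up 8 of the 20145 genes named on the array, and their 10 probes are 10 of 55681. Each probe was tied to its gene by the RefSeq accession that the scanner output gives. Alox12 and Alox12b have 2 probes each and the other 6 genes have 1.

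Whole uteri were collected at Gestation Day (GD) 3.5, which is 3 days after the post-coital plug was seen, from females mated at 8 to 10 weeks to males of proven fertility. Embryos had been flushed out of the horns. Sox17 ed/ed mice carried LtfiCre/+ together with Sox17 f/f, and the Sox17 f/f littermates carried the same floxed alleles without the recombinase. RNA of 3 biological samples of each genotype was hybridized to Agilent mouse gene expression arrays in 1 colour, 1 sample to an array. The iCre sits in the lactoferrin locus and acts in the uterine epithelium from puberty. Recombination in other cells of the uterus was not measured here, and a control for the recombinase alone was not among the arrays.

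Lipoxygenases are iron enzymes that place oxygen at a set position of polyunsaturated fatty acids such as arachidonate, giving hydroperoxides from which leukotrienes, lipoxins, hydroxy acids and the lipids of the skin barrier are made. Phospholipases free the fatty acid, peroxidases and hydrolases take the products further, and cell surface receptors or nuclear receptors of the PPAR family sense some of them. In the mouse uterus the enzyme encoded by Alox15 is known to be induced by progesterone in the surface epithelium ahead of implantation. Whether deletion of Sox17 in that epithelium goes with other levels of this family is the question the comparison addresses.

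Probes for Sox17 followed the labels. The normalized signal of the brighter probe was 4751, 4285 and 4775 on Sox17 f/f replicates 1, 2 and 3 and 862, 770 and 898 on the Sox17 ed/ed replicates, and the difference was -2.45 on the log2 scale (standard error 0.09). The second probe gave -2.97. All 6 arrays lay on 1 slide and were scanned once, with each genotype in its own line of that slide, so line and genotype cannot be told apart. Of 59305 spots that were not controls, 60.7% to 65.7% were well above background on Sox17 f/f arrays and 56.8% to 59.4% on Sox17 ed/ed arrays, and 0 were saturated. Signals named below are intensities after log2 transformation and quantile normalization, returned to the linear scale. No gene's level is set against that of another gene, except in the sums of cell type markers. Those sums add the signals of different probes and so weigh bright probes most.

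Among the 7 members that could be compared, Alox15 and Alox12e were lower in Sox17 ed/ed uteri, Alox5ap was higher, and Alox5, Alox12, Alox12b and Aloxe3 did not pass the thresholds of the study's methods, which are a fold change of 1.4 with an unadjusted limma p below 0.01. Alox8 did not rise clear of background anywhere. Because the family was picked with this contrast in view, the values are given as a description, without p-values, and the counts support nothing by themselves. Across the 14847 genes tested, 1857 passed (12.5%), with 6.47% lower and 6.04% higher in Sox17 ed/ed uteri, against 2 members lower and 1 higher. Groups that did not overlap were frequent on these arrays, at 40.6% of genes, 21% lower and 19.6% higher. The same 3 members lay apart. The median log2 fold change of the 7 members was 0.11 and that of all genes tested was close to 0, at -0.0016.

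**Figure D1:**
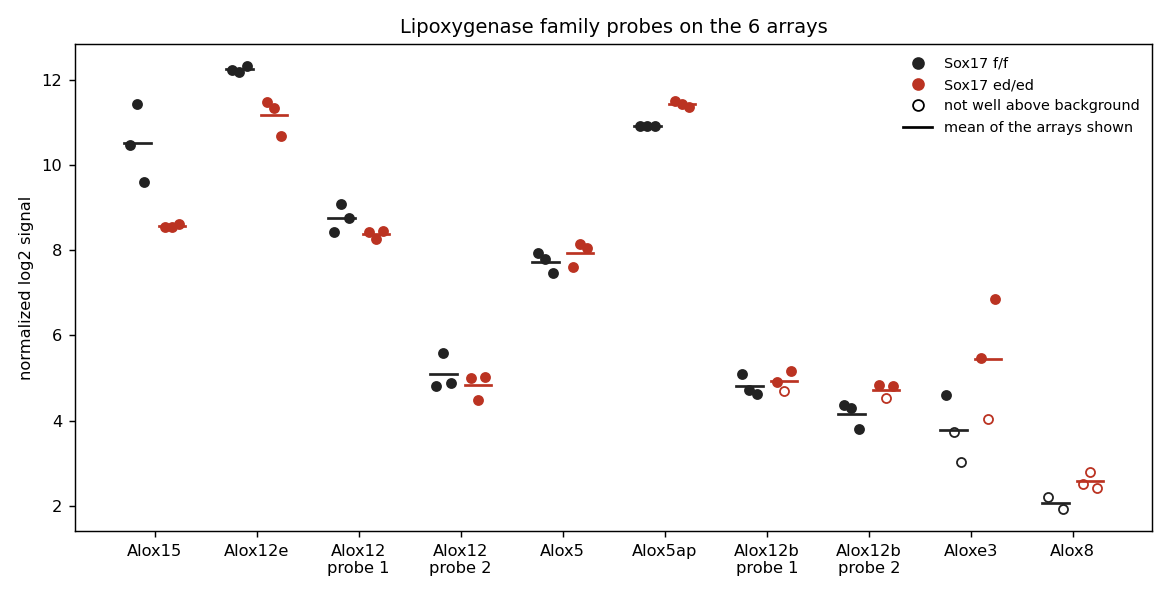
Normalized log2 signal of the 10 lipoxygenase probes on 3 Sox17 f/f arrays (black) and 3 Sox17 ed/ed arrays (red), replicates 1 to 3 from left to right, with the mean as a bar and open circles for spots not well above background. The groups lie apart for Alox15, Alox12e, Alox5ap, the second Alox12b probe and, below background, Alox8, and the Alox15 points spread widely in Sox17 f/f uteri only; Alox8 lacks 1 Sox17 f/f spot, which the scanner software marked as an outlier.

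Alox15 and Alox12e stand side by side on chromosome 11 with Alox12. No promoter sequence of Alox15 was available, so it was not searched. The 250 bases before the start of Alox12e, which passed the thresholds, and of its neighbour Alox12, which did not, are shown. Both were taken from RefSeq on GRCm38.p6 and read 5′ to 3′ along the gene's own strand, the minus strand. The Alox12e window is chr11:70322531-70322780 and the Alox12 window is chr11:70255371-70255620. Capitals mark a match to a searched motif.
Alox12e: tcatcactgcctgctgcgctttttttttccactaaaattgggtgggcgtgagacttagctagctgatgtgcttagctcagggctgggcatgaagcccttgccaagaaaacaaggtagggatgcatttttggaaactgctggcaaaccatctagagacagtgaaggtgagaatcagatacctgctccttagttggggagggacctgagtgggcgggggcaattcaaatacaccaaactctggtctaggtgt
Alox12: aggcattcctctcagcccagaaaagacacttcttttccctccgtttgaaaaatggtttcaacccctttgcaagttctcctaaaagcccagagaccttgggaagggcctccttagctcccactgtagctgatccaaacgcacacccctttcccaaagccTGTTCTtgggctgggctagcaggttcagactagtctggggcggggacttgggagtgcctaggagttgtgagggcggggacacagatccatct

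The motifs searched on both strands were AACAAT, the core bound by SOX factors, AGAACA, an element of the progesterone receptor, GATAAG for GATA factors and TGTTTA for FOXA factors. AGAACA and the reverse complement of TGTTTA end in the letters AACA, with which AACAAT begins, so their matches can overlap. Of 32851 promoter windows of this length, 9.42%, 16.1%, 6.55% and 12% held them, in that order. The Alox12 window held 1 match, to the progesterone receptor element on the opposite strand, and the Alox12e window held 0. Windows of Alox5, Alox8 and Alox12b, the other members among the 5 of 8 found in the table, held 0 matches as well. A match is a description of letters and not a binding site, and its absence says nothing about a factor's action from elsewhere.

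Alox15, the leukocyte-type lipoxygenase that oxygenates arachidonate and linoleate both free and inside membranes, had the lowest log2 fold change of the 7 members compared. Its normalized signal was 1419, 2750 and 781 on Sox17 f/f replicates 1, 2 and 3 and 373, 375 and 392 on Sox17 ed/ed replicates 1, 2 and 3. Every Sox17 f/f array lay above every Sox17 ed/ed array, and the control arrays differed among themselves far more than the deleted ones did. On the log2 scale the means were 10.50 ± 0.91 and 8.57 ± 0.04 (SD, n = 3 each), a log2 fold change of -1.93 with a standard error of 0.42, or 3.82-fold lower. Within Sox17 f/f uteri the highest array was 3.52-fold above the lowest. Only 153 of the genes tested (1.03%) had a larger SD among the Sox17 f/f arrays. In Sox17 ed/ed uteri the range was 1.05-fold. Leaving out 1 array moved the log2 fold change between -2.38 and -1.47. Alox15 passed the thresholds in 13 of 18 other settings, missing them in an ordinary linear model and on leaving out Sox17 f/f replicate 1 (-1.95) or Sox17 ed/ed replicate 1 (-1.92), 2 (-1.92) or 3 (-1.96).

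Alox12e, the epidermal-type lipoxygenase of rodents, was evenly high in the controls. Its normalized signal was 4802, 4661 and 5094 on Sox17 f/f replicates 1, 2 and 3 and 2840, 2564 and 1648 on the Sox17 ed/ed replicates. Here the spread lay in the deleted uteri, of which replicate 3 was the lowest, and the groups did not overlap. Means on the log2 scale were 12.24 ± 0.07 and 11.16 ± 0.42 (SD, n = 3 each), and the log2 fold change was -1.08 (standard error 0.20), or 2.12-fold lower. It lay between -1.24 and -0.85 when an array was left out. Alox12e passed in 17 of 18 other settings and missed the thresholds only in the ordinary linear model. Alox12e and Alox15 varied most in opposite groups. The SD was 0.07 in Sox17 f/f and 0.42 in Sox17 ed/ed uteri for Alox12e, and 0.91 and 0.04 for Alox15. The difference in spread was not tested.

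Alox12, the platelet-type enzyme that makes a hydroxy acid from arachidonate, overlapped between the genotypes on both of its probes. The brighter probe read 343, 546 and 430 in Sox17 f/f uteri and 342, 308 and 349 in Sox17 ed/ed uteri. The dimmer probe read 28.1, 47.9 and 29.7 against 32.0, 22.5 and 32.7. Replicate 2 was the highest control on both probes. Log2 fold changes were -0.38 (standard error 0.17) and -0.25, and the brighter probe passed the thresholds in 1 of 18 other settings, that without Sox17 f/f replicate 1 (-0.54). Alox12 was 1.30-fold lower, under the fold threshold of 1.4. It also did not pass in the setting that called genes by an adjusted p below 0.05 alone.

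Alox5ap encodes FLAP, the membrane protein that presents arachidonate to the leukotriene-forming enzyme. Its normalized signal was 1911, 1936 and 1923 on the 3 Sox17 f/f arrays and 2869, 2741 and 2637 on the 3 Sox17 ed/ed arrays. All 3 deleted uteri were above all 3 controls, and replicates lay close together in both groups. The log2 means were 10.91 ± 0.0091 and 11.42 ± 0.06 (SD, n = 3 each), a log2 fold change of 0.51 with a standard error of 0.06, or 1.43-fold higher. Its call rests on the fold threshold: Alox5ap passed in 14 of 18 other settings and missed it after scaling to the 75th percentile (0.48), after normexp background correction (0.48), without Sox17 ed/ed replicate 1 (0.48) and with the threshold at 2-fold.

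Alox5, the enzyme that starts leukotriene synthesis with the help of FLAP, read 246, 221 and 177 in Sox17 f/f uteri and 194, 283 and 265 in Sox17 ed/ed uteri. The groups overlapped, since replicate 1 of the deleted uteri lay among the controls. Its log2 fold change was 0.20 (standard error 0.18), it passed in 0 of 18 other settings, and it ranged from 0.07 to 0.37 when an array was left out.

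Alox12b and Aloxe3 act one after the other in the epidermis, where they oxidize linoleate held in ceramides so that a water barrier can form. Both were dim here. The probe used for Alox12b read 34.2, 26.5 and 24.9 in Sox17 f/f uteri and 30.3, 26.0 and 35.8 in Sox17 ed/ed uteri, where replicate 2 was not well above background. These groups overlapped, and the log2 fold change of 0.11 (standard error 0.16) changed sign without Sox17 ed/ed replicate 3 (-0.01). The second Alox12b probe read 20.8, 19.8 and 14.1 against 28.7, 23.3 and 28.0, again with replicate 2 of the deleted uteri not well above background, and its groups lay apart with a log2 fold change of 0.56. The probes of Alox12b therefore disagreed on whether the genotypes overlap, and neither passed the thresholds.

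Aloxe3 was measured well above background on only 1 Sox17 f/f array and 2 Sox17 ed/ed arrays. Its normalized signal was 24.1, 13.4 and 8.21 on the controls, of which replicate 1 alone was above background, and 44.6, 16.4 and 115.7 on the deleted uteri, of which replicate 2 was not. The highest deleted uterus was 7.04-fold above the lowest, and the groups overlapped. The log2 fold change was 1.67 with a standard error of 0.75. After normexp background correction it was 0.62. It passed in 1 of 14 settings that could test it, that without Sox17 ed/ed replicate 2 (2.38). Alox8, a lipoxygenase known from mouse skin, stayed near background throughout, at 4.64 and 3.80 on Sox17 f/f replicates 1 and 3 and 5.71, 6.93 and 5.37 on the deleted uteri. No fold is given for it.

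**Figure D2:**
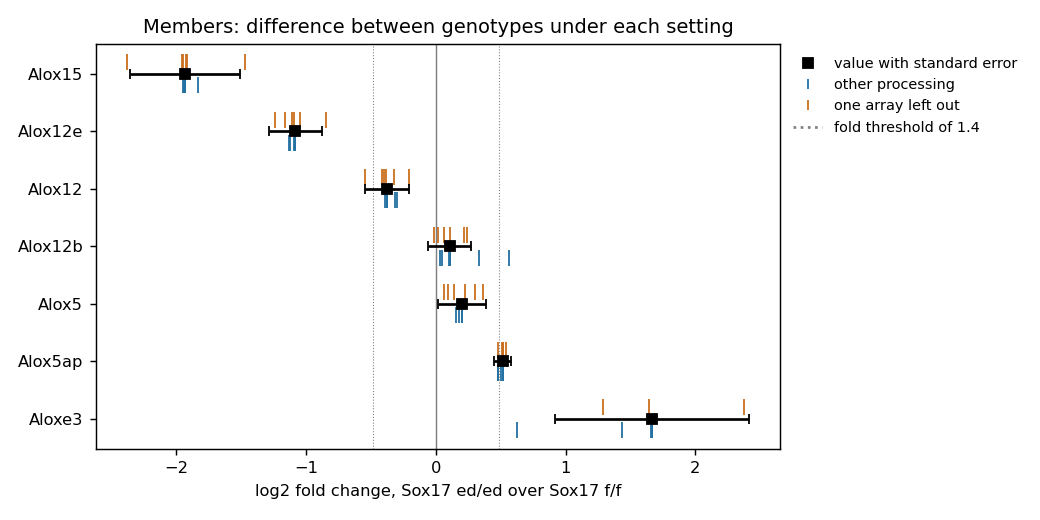
Log2 fold change of Sox17 ed/ed over Sox17 f/f for the 7 members compared, as reported (squares, bars for the standard error), under other processing (blue ticks) and with 1 array left out (orange ticks), dotted lines marking a fold of 1.4. Alox15 and Alox12e stay left of the lower line in every setting, Alox5ap straddles the upper line, and Aloxe3 has the widest error at 0.75.

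Of the members, 6 are on chromosome 11 in 2 groups by the gene order of GRCm38.p6, Aloxe3 with Alox12b and Alox8, and Alox12 with Alox12e and Alox15, with 64 protein-coding genes between the groups. The 3 nearest protein-coding genes on each side of each group were compared, 12 in all, and of the 11 tested 0 passed the thresholds, a limma adjusted p below 0.05 being reached by Rnasek, which encodes a subunit associated with the vacuolar proton pump (log2 fold change -0.33, adjusted p = 0.0219). Pelp1, the gene next to Alox15 on the other side and known as a coregulator of steroid receptors, had a log2 fold change of 0.02 (adjusted p = 0.903). In the second group the log2 fold change was -0.38 for Alox12, -1.08 for Alox12e and -1.93 for Alox15, in the order in which the genes lie.

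**Figure D3:**
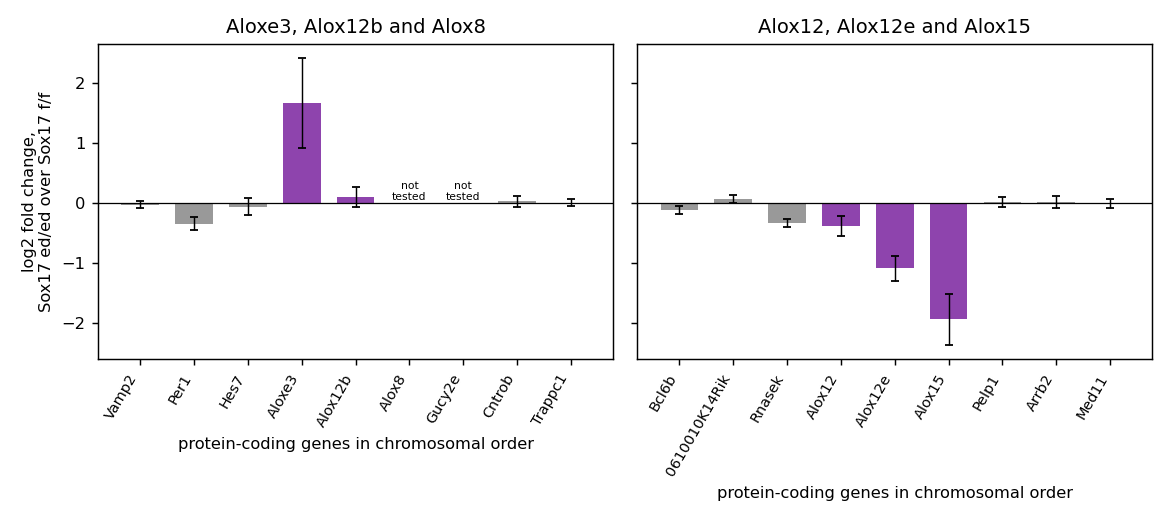
Log2 fold change of Sox17 ed/ed over Sox17 f/f (bars, with the standard error) for members of the 2 chromosome 11 groups (purple) and the 3 protein-coding genes on each side (grey), in gene order. Alox12e and Alox15 are at -1.08 and -1.93, whereas Pelp1, Arrb2 and Med11 beyond them lie between -0.01 and 0.02.

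The array profiles most like those of Alox15 and Alox12e were sought among 13863 genes well above background on all 6 arrays, by the Euclidean distance between log2 values centred on each gene's mean. These are descriptions over 6 arrays and were picked for their likeness. Nearest to Alox15 was Serpinb5, which encodes maspin, at a distance of 0.42. Its normalized signal was 124, 188 and 51.1 in Sox17 f/f uteri and 27.6, 31.4 and 25.0 in Sox17 ed/ed uteri. Next came the mucosal chemokine Cxcl17 (0.78), the potassium channel subunit Kcne3 (0.89), the ephrin receptor Epha8 (0.93) and Pmvk of the mevalonate pathway (1.01). In Alox15 and each of these 5 genes, Sox17 f/f replicate 2 was the highest array and replicate 3 the lowest control. Among the genes nearest to Alox12e were the immunoglobulin receptor Fcgr1 (0.41), Nnmt of nicotinamide metabolism (0.41) and Sirpb1a, a receptor of myeloid cells (0.41). Sox17 ed/ed replicate 3 was the lowest array for Alox12e and for these 3 genes.

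**Figure D4:**
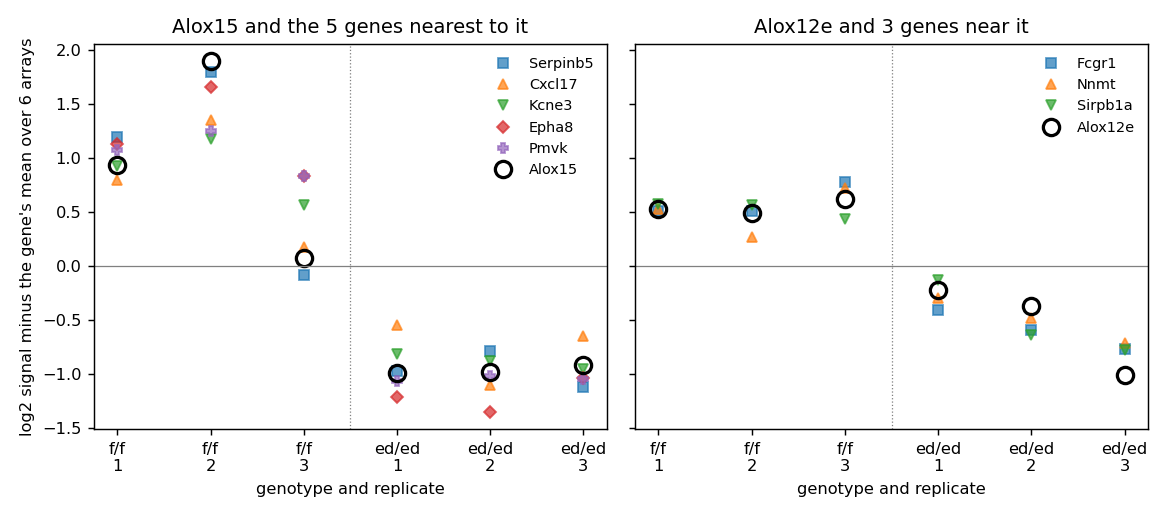
Normalized log2 signal minus each gene's mean over the 6 arrays, by genotype and replicate, for Alox15 (left, open circles) with the 5 genes at the smallest distance and for Alox12e (right, open circles) with 3 genes near it. Alox15 and Serpinb5 share a high Sox17 f/f replicate 2, and Alox12e and the genes beside it are lowest in Sox17 ed/ed replicate 3.

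Genes that supply, use or sense the products were taken from 6 lists of 70 genes, of which 69 were on the array and 49 were tested. Of these, 9 rose past the thresholds and 5 fell past them in the deleted uteri, which is 28.6% against 12.5% of all genes. The lists were chosen with earlier results of these data known, so this share is a description only. By a limma adjusted p below 0.05, which 18.9% of all genes reached, 9 were higher and 10 lower, and the median log2 fold change of the 49 was -0.05.

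Of the phospholipases A2 and reacylation enzymes, 13 were tested, 2 rose and 1 fell, around a median of 0.03. Pla2g10, a secreted phospholipase A2, read 5369, 3931 and 4929 in Sox17 f/f uteri and 30.3, 20.5 and 25.8 in Sox17 ed/ed uteri, where 2 of 3 arrays were well above background. The fitted difference was -7.54 on the log2 scale with a limma adjusted p of 9.2e-06 and a standard error of 0.18, with -5.76 after normexp background correction. Pla2g5, another secreted enzyme, read 68.0, 74.8 and 98.8 against 1674, 1419 and 1679, or 4.32 on the log2 scale, with 0.15 as the standard error and 2.7e-05 as the limma adjusted p. Its second probe overlapped between the genotypes, with 155, 81.5 and 6.32 in the controls and 68.9, 63.1 and 73.9 in the deleted uteri. Sox17 f/f replicates 1 and 2 lay above every deleted uterus on that probe, and replicate 3, not well above background, lay below. The log2 fold change of the second probe was 0.67, and that for the mean of both probes was 2.49. Pla2g12a had a log2 fold change of 0.49 (limma adjusted p = 0.0347). It missed the thresholds after 75th percentile scaling (0.48), after normexp (0.45), with the deposited values (0.48) and in an ordinary linear model. The same held with the replicate number as a block and with a 2-fold threshold. It also missed them without Sox17 f/f replicate 1 (0.48) or 3 (0.40) or Sox17 ed/ed replicate 1 (0.46) or 3 (0.45).

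Of the 8 tested leukotriene enzymes, 2 rose and 0 fell. Mgst1, a microsomal glutathione transferase, had a log2 fold change of 0.68 (limma adjusted p = 0.0027) and Ggt1, a gamma-glutamyl transferase that trims the glutathione of leukotrienes, one of 2.33 (adjusted p = 0.0010), although only 1 Sox17 f/f array was above background and the value after normexp was 0.60. The hydrolase Lta4h and the synthase Ltc4s, named with their values seen because they directly follow Alox5, had log2 fold changes of 0.04 and 0.13, with adjusted p of 0.704 and 0.463. Among 10 tested receptors 0 rose and 1 fell, Fpr2, a receptor of lipoxin on myeloid cells (log2 fold change -1.18, limma adjusted p = 0.0350). It read 33.7, 64.0 and 42.3 against 16.6, 17.6 and 26.8, was above background on 1 deleted uterus, and missed the thresholds after normexp (-0.39), in an ordinary linear model, and without Sox17 f/f replicate 2 (-0.92) or 3 (-1.22) or Sox17 ed/ed replicate 1 (-1.05) or 2 (-1.09).

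The genes of peroxide reduction and breakdown numbered 11, of which 2 rose and 2 fell. Gpx2, an epithelial glutathione peroxidase, read 15411, 17635 and 10110 in controls and 864, 860 and 775 in the deleted uteri, or -4.07 on the log2 scale, with 0.21 as the standard error and 8.8e-05 as the limma adjusted p. The epoxide hydrolase Ephx3 was at -0.91 and its relative Ephx1 at 1.07, with adjusted p of 0.0011 and 0.00032. Cyp4f18, which oxidizes leukotriene B, had 0.78 (limma adjusted p just under 0.05). It missed the thresholds with no filter on low signal, in an ordinary linear model, with the replicate number as a block and with a 2-fold threshold. It also missed them without Sox17 f/f replicate 1 (0.84), 2 (0.74) or 3 (0.75) or Sox17 ed/ed replicate 2 (0.62) or 3 (0.69). In the epidermal barrier pathway beside Alox12b and Aloxe3, 5 genes were tested, 1 rose and 1 fell. The ceramide synthase Cers3 read 80.5, 124 and 160 against 682, 690 and 831 (log2 fold change 2.64, limma adjusted p = 0.0010). Tgm1, the transglutaminase of the cornified envelope, had -1.13 (adjusted p = 0.00021), with 2 deleted uteri above background and -0.39 after normexp. Nipal4, Cyp4f39, Abca12, Lipn and Sdr9c7 of the same list were not tested, being too dim.

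The cyclooxygenases, which draw on the same arachidonate, were both higher. Ptgs1 had a log2 fold change of 2.06 (limma adjusted p = 3.5e-05) and Ptgs2 of 0.998 (adjusted p = 0.0115), or 0.56 after normexp.

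**Figure D5:**
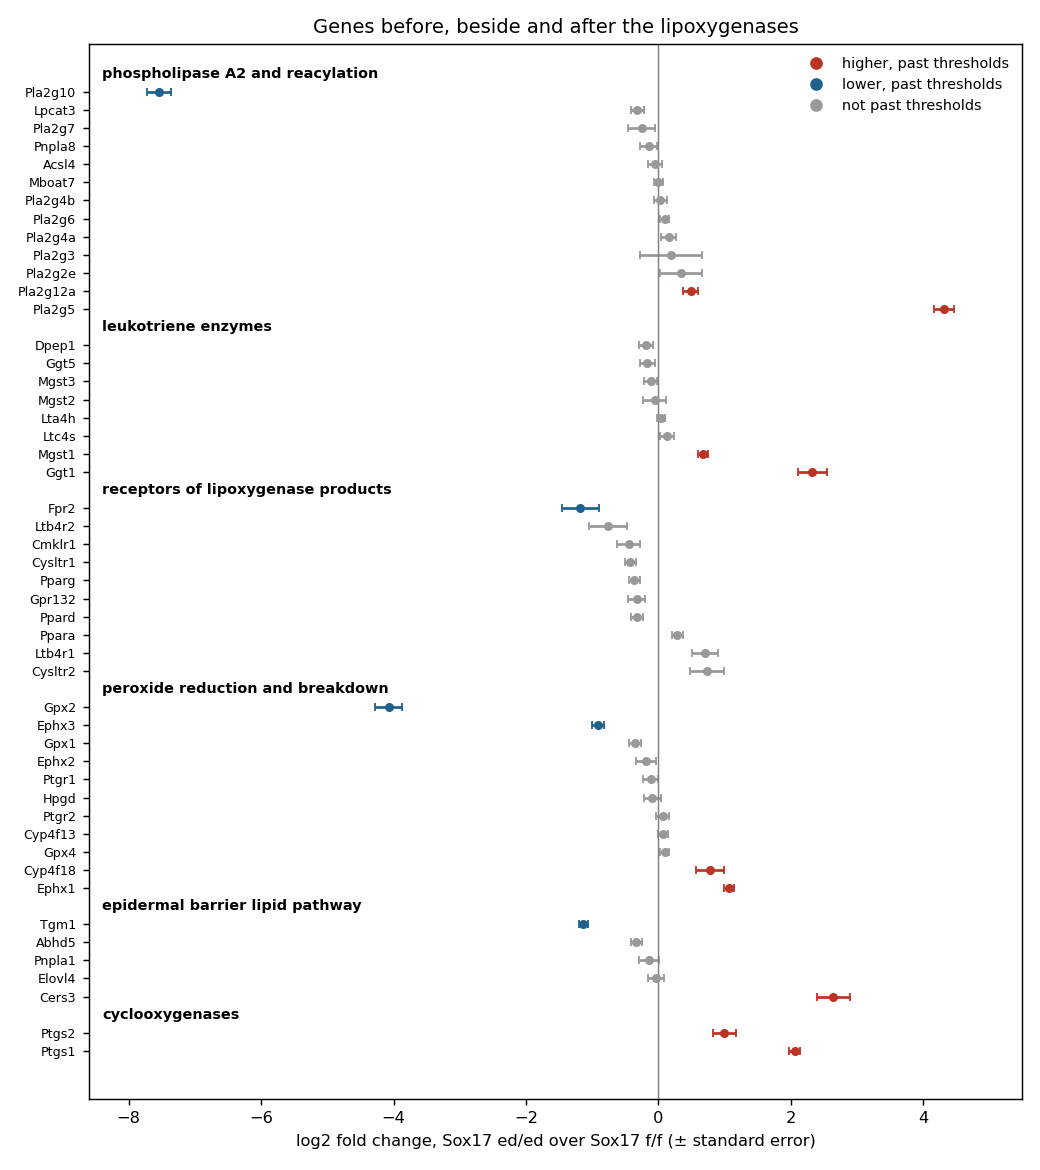
Log2 fold change of Sox17 ed/ed over Sox17 f/f with its standard error for the 49 tested genes of the 6 lists, red for higher and blue for lower past the thresholds. Pla2g10 at -7.54 and Pla2g5 at 4.32, each by the probe used, are the extremes, both within the phospholipase list.

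Whole uterus mixes cell types, and fewer cells of a type cannot be told apart from less RNA per cell for any member. Uterine epithelium was present in all samples: 12 of 12 of its markers were tested, and 6 rose and 2 fell with the deletion. Their summed signal was 55192 to 58427 in controls and 56366 to 69413 in deleted uteri. These sums depend on Krt19, 1 of the 6 that rose, which went from a mean of 4167 to 17806. The 2 that fell were Cldn3, from a mean of 11047 to 4932, and Cldn7, from 8460 to 5154. Smooth muscle markers summed to 501578 to 554074 and 375034 to 451967, with 1 of 8 lower. Stromal markers summed to 108582 to 113237 and 106917 to 118936, with 0 of 8 past the thresholds. Beside Alox5 and Alox5ap, markers of leukocytes in general summed to 17907 to 18111 and 16957 to 20082, with 0 of 6 past the thresholds and overlapping sums. Neutrophil markers gave 0 of 7, with sums of 43997 to 50376 and 46778 to 49276 that were mostly the signal of Csf3r, with means of 44942 and 45609.

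Beside Alox15 and Alox12e, 2 of 8 tested macrophage markers were lower, Mrc1 and Fcgr1, and 5 of 8 lay apart as lower, C1qa, C1qb and C1qc included. The sums overlapped at 20609 to 22105 and 21523 to 21923, with Csf1r going the other way, from a mean of 7593 to 10055. Cd163 was too dim to test. Of 7 eosinophil markers 1 was higher, Prg2, with sums of 640 to 1046 and 822 to 1251 and Epx too dim. Of 6 tested mast cell markers 2 were lower, Kit and Fcer1a, while Cma1, Cpa3, Mcpt4 and Tpsb2 overlapped between the genotypes. Fcer1a was well above background on 3 control arrays and on 0 deleted uteri. By the lowest signal well above background it was at least 1.32-fold lower, a bound under the fold threshold of the methods. Mast cell marker sums were 2267 to 2959 in controls and 1217 to 1599 in deleted uteri. The distance between these sums was mostly the signal of Kit, which went from a mean of 1189 to 327. Ms4a2 was too dim. Beside Alox12, 2 of 5 tested platelet markers were lower, Itga2b among them, the sums were 1855 to 2054 and 1548 to 1989, and Ppbp, Gp9, Gp1ba, Gp5 and Gp6 were too dim to test.

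Beside Alox12b and Aloxe3, 3 of 9 tested markers of stratified squamous epithelium were higher, Krt5, Krt15 and Sfn, with sums of 4650 to 5262 in controls and 5610 to 6174 in deleted uteri. Krt5 and Krt15 were well above background on 0 control arrays and so entered the test and the sums only through the deleted uteri. Krt15 went from a mean of 6.46 to 803, so the distance between the sums is no separate observation. Most of the remaining signal was that of Trp63, with means of 2660 and 2453, and Sbsn, with means of 1350 and 1394. Krt5 read 8.74, 10.4 and 9.37 in controls and 223, 30.6 and 40.3 in deleted uteri. The second Krt5 probe, too dim to test, was at -0.75 on the log2 scale. Krt1, Krt4, Dsg3, Dsc3, Ivl and Krtdap were too dim to test. Trp63, the basal cell factor, did not pass by its brighter probe (log2 fold change -0.12), whereas its second probe, not well above background in the controls, was at least 18.1-fold higher in the deleted uteri. The second Krt13 probe was likewise at least 3.32-fold higher, against 0.06 on the log2 scale for the probe used. Krt15 was not well above background on any control array and was at least 62.8-fold higher in the deleted uteri by the lowest signal well above background (measured log2 means 2.69 and 9.65). Their part in the values of the members was not tested.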

How the data were processed

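Total uterine RNA of 3 mice without and 3 mice with the epithelial Sox17 deletion was read on 1-colour Agilent arrays, with the genotype taken from each sample's title. The deposited intensity is the processed signal of each spot, from which Feature Extraction (11.0.1.1 in the file headers, 9.1 in the submitters' processing notes) had subtracted background and spatial trends; the deposited table of processed values is its mean per probe and carries no normalization between arrays. Subtraction makes dim values uncertain on a log scale.

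Log2 intensities were quantile normalized over 6 arrays, control and outlier spots (169 to 302 per array) were left out, replicate spots were averaged, and a probe entered the test if 3 or more arrays had it well above background. limma 3.58.1 (R 4.3.3) gave the tests, and p was adjusted by Benjamini-Hochberg across 14847 genes. The brightest tested probe stood for a gene. The thresholds were those of the study's methods, an unadjusted p of 0.01 and a fold of 1.4. An exact test of 1 gene could not go below 0.1, and the number of arrays limits the precision. Names came from a RefSeq table of GRCm38.p6, and a probe was named where its accession belonged to a single gene there, as for 26582 of 55681 probes. The array design uses mm9, and no probe coordinates are given. Python 3.11.15 with pandas 2.3.3, numpy 2.4.6 and matplotlib 3.10.9 drew plots and read promoters. In simulated data of 14762 genes, 3 arrays against 3, 95.9% of changes of 1 and 99.0% of changes of 2 on the log2 scale were recovered, with 60 unchanged genes called. The simulated noise was normal with the same SD in both genotypes, and neither the filter on dim probes nor the normalization was applied. Recovery was therefore not measured for genes that are dim or whose spread differs between genotypes, as that of Alox15 and Alox12e does.

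Members and gene lists were chosen with earlier results of these data known. By rule, the text names every member, each pathway gene past the thresholds and the 5 nearest profiles of Alox12e and Alox15; a few of these and of the marker genes are not reported here. Alternatives were 75th percentile scaling, normexp with an offset of 50 on the median spot signal (the mean signal column was not in the files used here), no filter on dim probes or well above background on all 6 arrays, other probe rules, the deposited values, a linear model without moderation, one with an intensity trend, the replicate number as a block, an adjusted p of 0.05, a 2-fold threshold, and each array left out in turn.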

Additional observations from a re-analysis of the deposited data

How the results depend on the processing

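Of the members' log2 fold changes, none of those past the thresholds changed direction in any alternative run. The number of members past the thresholds fell from 3 to 1 in an ordinary linear model and lay between 1 and 3 when an array was left out, 1 being the number without Sox17 ed/ed replicate 1; members lying apart numbered 3 to 4. Genes past the thresholds, 1857 in all, became 2808 by adjusted p and 817 with a 2-fold threshold, and 1584 to 1945 with an array left out. Pathway genes higher, 9 in all, became 5 with a 2-fold threshold and lay between 7 and 9 with an array left out. Pathway genes lower, 5 in all, became 3 after normexp, 2 among probes well above background on all 6 arrays and 10 by adjusted p, and lay between 4 and 5 with an array left out. Cell type markers past the thresholds, 19 in all, became 10 with a 2-fold threshold and lay between 15 and 19 with an array left out. The cause was not tested beyond what each alternative's own construction shows. The Sox17 probe used ranged from -2.49 to -2.40 over the alternatives that keep it, with -2.71 for the mean of both probes and -2.97 for the other probe, and from -2.50 to -2.39 with an array left out.

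Same-numbered arrays did not visibly deviate together, with correlations of 0.06, -0.11 and -0.00011 for numbers 1, 2 and 3. Differently numbered arrays had correlations from -0.08 to 0.08. With 3 arrays of each genotype these correlations cannot decide whether the replicate numbers pair the samples. With the replicate number as a block 1796 genes and 3 members passed the thresholds, and among the pathway genes Cyp4f18 and Pla2g12a no longer did whereas Ltb4r1 (log2 fold change 0.70) then did. Signal over background limits Alox8 on all arrays, Aloxe3 on 3 of 6 and Alox12b on 1 of 6, and 3 arrays of each genotype limit all values.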
